A study of Fraxinus excelsior with 182 samples.

Results

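The trees compared here were European ash (Fraxinus excelsior) trees of a Danish panel, grouped by the number in their label. Trees numbered Ash1 to Ash60 formed the low group, with 56 trees, and trees numbered Ash150 to Ash218 formed the high group, with 51 trees, out of 182 trees in the series. The other 75 trees, Ash61 to Ash149, were a middle group used to look for a gradient. Each tree gave a single library of total RNA from leaves, and the labels list no treatment, genotype, age or collection date that would separate the groups. What the number stands for is not given in the sources used here, so time, place and parentage of the trees cannot be told apart. The panel had been assembled to study ash dieback, a disease caused by the fungus Hymenoscyphus fraxineus, and the study related leaf expression to damage scores, which were not used here. The run identifiers in the sample titles fall into 2 ascending series and 2 further runs. The first series held 33 low, 60 middle and 47 high trees, and the second held 22 low, 15 middle and 3 high trees.

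MADS-box proteins are transcription factors that set the timing of flowering, dormancy and other seasonal steps in plants. In Arabidopsis, SOC1 promotes flowering and SVP delays it by repressing regulators such as SOC1. JOINTLESS is known from tomato, where it is needed for the abscission zone of the flower stalk, and related genes in fruit trees are linked with bud dormancy. Heat shock proteins are chaperones that hold or refold other proteins, and many of them are transcribed when cells are warmed.

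Expression values were TPM, an abundance of transcripts corrected for coding length that sums to 1000000 in each tree. TPM carries no record of sequencing depth, so the reads per tree are unknown and no counting interval can be given. Of 42665 gene models, 31003 reached 1 TPM in at least 19 trees and were tested. The leaf label was checked with a pair of chlorophyll synthesis genes. Fe_g32180, a coproporphyrinogen oxidase, had a lowest, median and highest level of 574, 908 and 1502 TPM in low trees and of 526, 962 and 1540 TPM in high trees. Fe_g5474, a divinyl reductase, had 10.9, 20.8 and 34.1 TPM in low trees and 7.76, 19.8 and 30.3 TPM in high trees. Both genes were present in every library of these groups. The run series differed widely within 1 group: in the low trees alone, 19003 genes, or 61.3% of those tested, differed between the second and the first series. That comparison did not account for the Ash number. In the low group, 12 of 26 trees in Ash1 to Ash30 were of the first series, against 21 of 30 in Ash31 to Ash60. Series and number therefore cannot be fully told apart there. Because the second series held 22 low trees but only 3 high trees, the main counts, and the values of the genes described most fully, are also given within the first series.

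Low and high trees differed in a large part of the leaf transcriptome, by small amounts. With limma on log2(TPM + 1), 6500 genes, or 21% of those tested, passed a Benjamini-Hochberg adjusted p of 0.05, with 4865 higher in low trees (15.7%) and 1635 lower (5.27%). The central 98% of differences over all genes lay between -0.52 and 0.50 on the log2 scale. Within the first run series, 15741 genes passed (50.8%), 10372 higher (33.5%) and 5369 lower (17.3%). The excess of higher calls depended on scaling: after median-of-ratios scaling, which sets the typical gene to the same level in each tree, 3247 genes were higher and 2944 lower, and within the first series 7226 were higher and 8077 lower. No gene separated the groups: of 31003 genes, 0 had low and high trees without overlap, also within the first series.

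More genes differed between middle and high trees than between low and middle trees. Between low and middle trees, 356 genes passed (1.15%), fewer of them higher than lower in low trees, and between middle and high trees 5017 passed (16.2%), 4328 higher and 689 lower in middle trees. Within the first series these counts were 4967 (16%) and 10590 (34.2%). Among the 6500 genes that differed between low and high trees, the middle mean lay between the means of the other groups for 83.3%, against 49.2% over all genes tested, and it was nearer to the low mean for 80.7%, against 63% over all genes. In the first series the middle mean was nearer to the low mean for 61.4% of the genes called, against 55.9% over all genes. Those shares describe the same fit that made the calls and are not a test. The plot of calls by pair of groups shows the same order in all trees and within the first series.

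**Figure D1:**
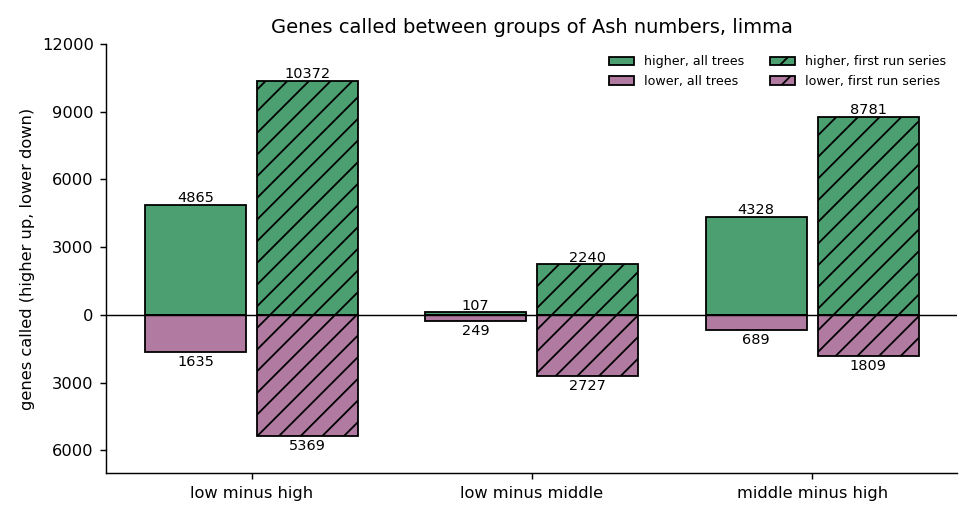
Number of genes called by limma (adjusted p of 0.05 or less) for each pair of groups of Ash numbers, with genes higher in the first-named group above the line and lower ones below it, for all trees (plain bars) and the first run series (hatched bars). Low minus high had the most calls in both sets of trees, and low minus middle the fewest.

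The clearest pattern among annotated genes was in the MADS-box family. The study annotated genes that it had related to dieback damage on these same trees, 11 in this family and 94 others used here, so their counts are not independent evidence. Of these 11 genes, 1 was higher and 9 were lower in low trees, and 1 did not pass. That is 90.9% called, against 21% of all genes tested, and the median difference was -0.77 against 0.04 over all genes. Counts of 1 higher and 9 lower were also found after median-of-ratios scaling, and the first run series gave 1 higher and 8 lower, which is 81.8% called, against 50.8% of all genes. In leaf samples of whole tissue, fewer cells of a type and less RNA per cell cannot be told apart. Several of these genes are close relatives, and Salmon divides reads that match more than 1 transcript, so the split between paralogs is uncertain.

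All 4 SOC1-like genes were lower in low trees, where 5.27% of all genes were. Fe_g19663 ranged from 0 to 20.4 TPM with a median of 4.29 TPM in low trees, and from 0 to 46.4 TPM with a median of 17.2 TPM in high trees. The ranges overlapped, but 52 of 56 low trees lay below the median of the high trees, and 20 high trees lay above the highest low tree. The ratio of mean TPM, low over high, was 0.414, and the difference was -1.16 ± 0.24 (SE, limma, Benjamini-Hochberg adjusted p = 8.49e-05). In the first run series the difference was -1.17 (adjusted p = 0.0004).

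Fe_g40351.1 had a lowest, median and highest level of 0, 5.58 and 38.7 TPM in low trees and of 0, 18.9 and 37.7 TPM in high trees. Here 1 low tree exceeded every high tree, while 49 of 56 low trees lay below the median of the high trees. It had the largest difference of the SOC1-like genes, -1.29 ± 0.21 (SE, limma adjusted p = 6.17e-07). Fe_g40353 had 2.04, 25 and 60.6 TPM in low trees and 4.05, 42.5 and 75.5 TPM in high trees, a difference of -0.77 ± 0.15 (SE, limma adjusted p = 3.81e-05). The first series gave -1.35 for Fe_g40351.1 and -0.68 for Fe_g40353 (adjusted p = 2.35e-07 and 0.000233). For Fe_g40353, 42 of 56 low trees were under the high median.

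Fe_g40350 changed least among the SOC1-like genes, with 2.02, 28.8 and 51.3 TPM in low trees and 5.56, 33.6 and 46.4 TPM in high trees. Its difference of -0.37 ± 0.12 (SE) passed in all trees (limma adjusted p = 0.0124). The call was lost in the first run series, where the difference was -0.21 (adjusted p = 0.106).

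The SVP-like gene ran the other way. Fe_g22999 had 1.85, 23.7 and 36.7 TPM in low trees and 0.737, 10.9 and 36.1 TPM in high trees. Of the low trees, 54 of 56 lay above the median of the high trees, which themselves covered nearly the whole range. The difference was 1.04 ± 0.20 (SE, limma adjusted p = 1.96e-05), with a ratio of means of 1.65, and it was 1.11 in the first series (adjusted p = 5.14e-05).

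Of the 6 JOINTLESS-like genes, 5 were lower in low trees, where 5.27% of all genes were. Fe_g18379 showed the largest change of the family and looked close to an on and off pattern. Its lowest, median and highest levels were 0, 0 and 19 TPM in low trees and 0, 12.9 and 22.4 TPM in high trees. It was listed at 0 in 31 of 56 low trees, 12 of 75 middle trees and 8 of 51 high trees. A level of 1 TPM or more was found in 14 low trees and 40 high trees (Fisher's exact test, two-sided, Benjamini-Hochberg adjusted p = 6.8e-05), where 1.79% of the 12593 genes tested for detection passed. The difference in level was -2.02 ± 0.30 (SE, limma adjusted p = 6.45e-08), and -2.11 in the first series (adjusted p = 1.99e-07).

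Fe_g18374 had 0, 19.1 and 86.2 TPM in low trees and 0, 40.5 and 69.5 TPM in high trees, a difference of -1.28 ± 0.25 (SE, limma adjusted p = 2.22e-05). Fe_g18376 had 0.546, 2.74 and 23.2 TPM in low trees and 0.111, 11.4 and 27.8 TPM in high trees, a difference of -1.15 ± 0.18 (SE, limma adjusted p = 1.27e-07). In both genes the low trees were spread over most of the range, with 45 and 49 of 56 low trees under the high median. Fe_g18375, with medians of 17.7 TPM in low trees and 34.9 TPM in high trees, and Fe_g18373.1, with medians of 2.79 TPM in low trees and 5.01 TPM in high trees, had differences of -0.66 and -0.62 (limma adjusted p = 2.22e-07 and 8.29e-07). These genes also passed in the first series. Fe_g36254, by far the most abundant of the JOINTLESS-like genes, had 42.2, 97.8 and 147 TPM in low trees and 43.3, 99.9 and 185.1 TPM in high trees. Its difference of -0.02 ± 0.07 (SE) did not pass (limma adjusted p = 0.894).

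**Figure D2:**
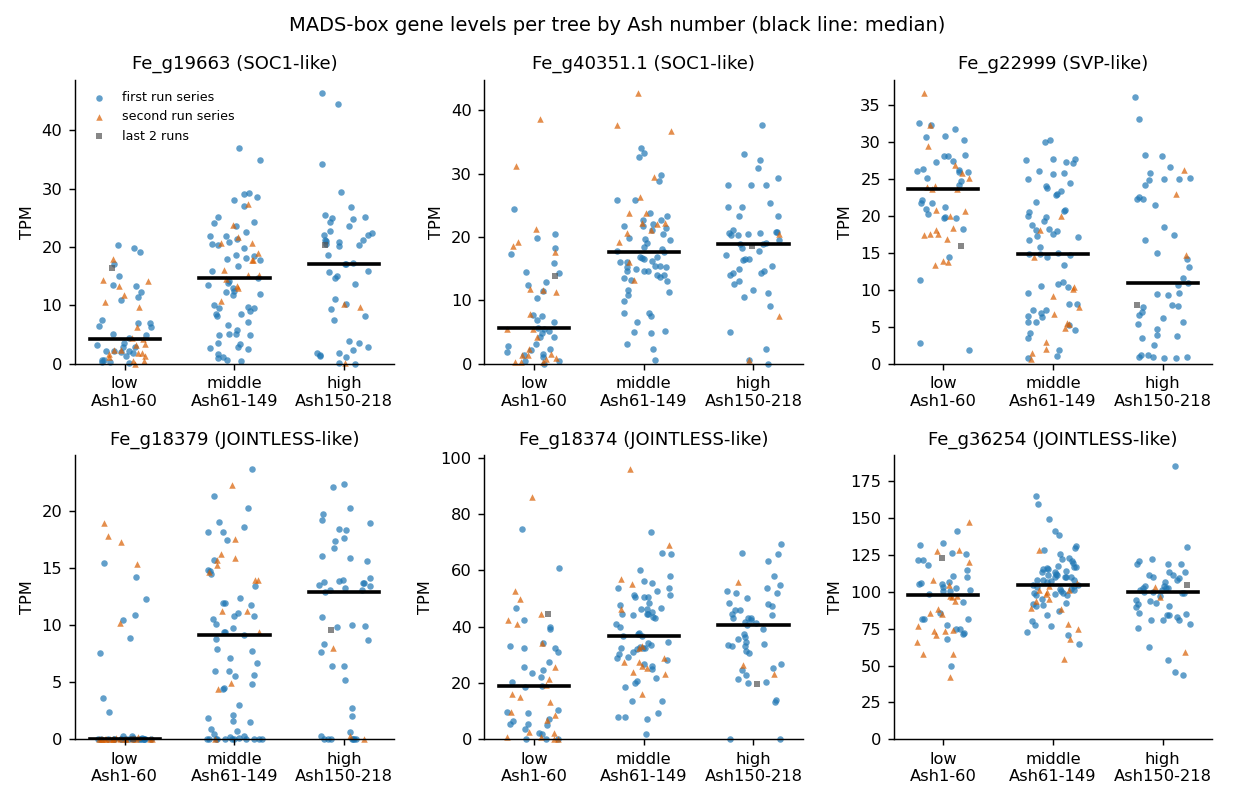
Level of 6 MADS-box genes in TPM in each tree, by group of Ash numbers, with the group median as a black line and the run series as colour and symbol. Low trees gather near 0 for Fe_g18379 (median 0 TPM, against 12.9 TPM in high trees) and lie mostly above the high median for Fe_g22999. Fe_g36254 has medians of 97.8 TPM in low trees and 99.9 TPM in high trees.

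The MADS-box calls lay between the low trees and both other groups. All 10 MADS-box genes that differed between low and high trees also differed between low and middle trees, where 1.15% of all genes passed. For Fe_g19663 the difference of low minus middle was -1.26 (limma adjusted p = 6.5e-05), and for Fe_g18375 it was -0.74 (adjusted p = 7.67e-09). Between middle and high trees 0 of the 11 genes passed, with adjusted p from 0.159 for Fe_g36254 to 0.934 for Fe_g18376, where 16.2% of all genes passed. The middle trees had medians of 14.7 TPM for Fe_g19663, 14.8 TPM for Fe_g22999 and 9.16 TPM for Fe_g18379.

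Along the numbers the family did not change evenly. Over 7 stretches of Ash numbers, Fe_g19663 had medians of 2.10 TPM in Ash1 to Ash30, 7.22 TPM in Ash31 to Ash60, 8.57 TPM in Ash61 to Ash90, 19.5 TPM in Ash91 to Ash120, 15.3 TPM in Ash121 to Ash149, 21.1 TPM in Ash150 to Ash178 and 9.80 TPM in Ash181 to Ash218. The medians thus stepped up both inside the low group, after Ash30, and inside the middle group, after Ash90, and the last stretch was lower again. Fe_g22999 ran the other way, with medians of 25.2, 21, 19.9, 7.71, 10.7, 5.96 and 22.3 TPM in the same order. The medians of Fe_g18379 moved the same way as those of Fe_g19663, at 0, 0.148, 0.770, 12.7, 9.98, 13.8 and 7.99 TPM. Its second stretch was mixed: all trees from Ash49 to Ash60 lay between 7.58 and 19 TPM. The trees of that stretch before Ash49 were at 3.60 TPM or less, so this gene was already on in some low trees. The last stretch was not uniform: in its trees up to Ash192, Fe_g22999 lay between 0.737 and 11.6 TPM, all below the median of that stretch.

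Other members were low chiefly in the first stretch. Fe_g40353 had a median of 14.6 TPM in Ash1 to Ash30, against 40.3 TPM in Ash31 to Ash60 and medians from 38.2 to 47.1 TPM in the later stretches. Fe_g18374 had 6.71 TPM in the first stretch and 31.7 TPM in the next. The first series gave similar medians for Fe_g19663, 1.65 TPM in Ash1 to Ash30, 21.6 TPM in Ash91 to Ash120 and 9.30 TPM in Ash181 to Ash218. The borders of the stretches were set after the values had been seen, and no test was made between them.

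**Figure D3:**
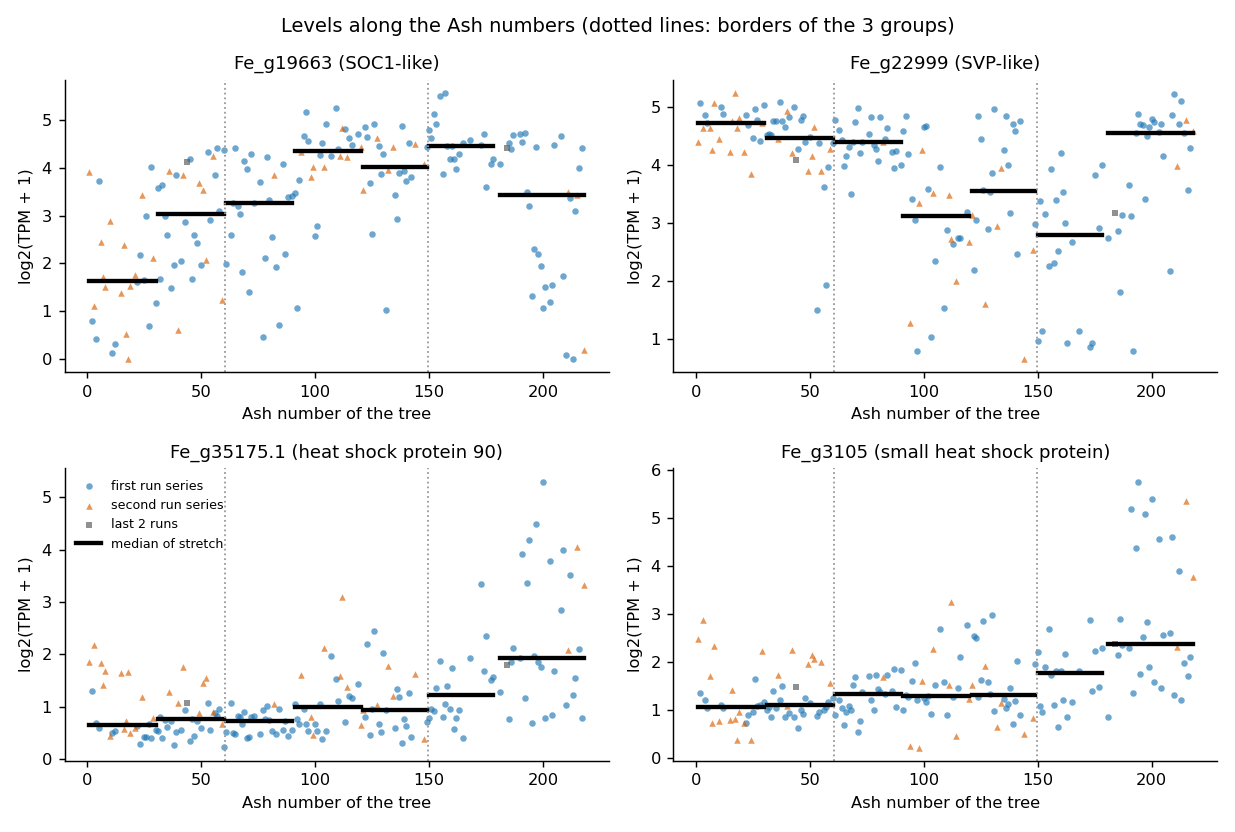
Level on the log2(TPM + 1) scale against the Ash number for a SOC1-like gene, the SVP-like gene and 2 heat shock genes, with a point per tree, the run series as colour and symbol, the median of each stretch of numbers as a black bar and the group borders as dotted lines. The medians of the SOC1-like Fe_g19663 and the SVP-like Fe_g22999 run in opposite directions, with 9.80 and 22.3 TPM in Ash181 to Ash218, where the medians of both heat shock genes are highest.

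A slope within the middle trees uses no tree of the low or high group. There, 917 genes changed with the Ash number, which is 2.96% of those tested. Of these, 656 rose and 261 fell, whereas over all trees 1869 slopes rose and 4757 fell. Among the 6500 genes called between low and high trees, 56.2% had a slope within the middle trees in the direction of that comparison, against 55% of all genes. Of the 11 MADS-box genes, which the study had related to damage on a panel that includes these trees, 3 passed. Per 100 Ash numbers, Fe_g19663 rose by 1.77 ± 0.46 (SE, limma adjusted p = 0.0243) and Fe_g18379 by 2.81 ± 0.65 (SE, adjusted p = 0.0148), and Fe_g22999 fell by 1.56 ± 0.46 (SE, adjusted p = 0.0426). These are the directions of the low and high comparison. In the middle trees of the first series, the slopes were 1.76, 2.36 and -1.09, with limma adjusted p of 0.0713, 0.0765 and 0.205, so the calls were lost in the smaller set, in which 1.6% of all genes passed. Slopes in the first series passed for 2694 of 31003 genes within the low trees, 497 within the middle trees and 3 within the high trees. Levels thus also changed with the number inside the low group.

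The second run series gave slopes from trees not in the first. The study had related the 11 MADS-box genes to damage on all 182 trees, these included, so their slopes are not independent evidence. Over the 40 trees of the second series, 10 of the 11 genes had a slope of the same sign as in the 140 trees of the first. The exception was Fe_g36254, with 0.09 in the second and -0.05 in the first. Those 10 genes also had an unadjusted p under 0.05 in the second series, where 4.54% of all genes did, but none passed adjustment over all genes (limma adjusted p from 0.353 to 1), as 0.00645% of all genes did. Per 100 Ash numbers, Fe_g18379 had slopes of 1.64 ± 0.42 in the second series and 1.27 ± 0.22 in the first, and Fe_g22999 had -0.82 ± 0.24 and -0.60 ± 0.15 (SE). None of the 11 genes passed a test of the difference in slope between the series (limma interaction, adjusted p from 0.0645 to 0.675), where 10.4% of all genes did. With so few genes, that lack of calls cannot be told apart from the share over all genes. In the low trees none of the 11 passed for a difference in level between the series (limma adjusted p from 0.0809 to 0.982), where 61.3% of all genes did. The comparison in low trees did not account for the Ash number, which was unequally spread over the series.

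Over the whole transcriptome the second series did not repeat the first. Slopes on the Ash number passed for 6626 genes over all trees (21.4%) and 14742 in the first series (47.6%). Of the 14742 genes, 45.5% had the same sign in the second, against 46% over all genes. The second series holds few high trees and is smaller. In the plot of both slopes most MADS-box genes lie away from the cloud of other annotated genes, but Fe_g36254 lies near the origin.

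**Figure D4:**
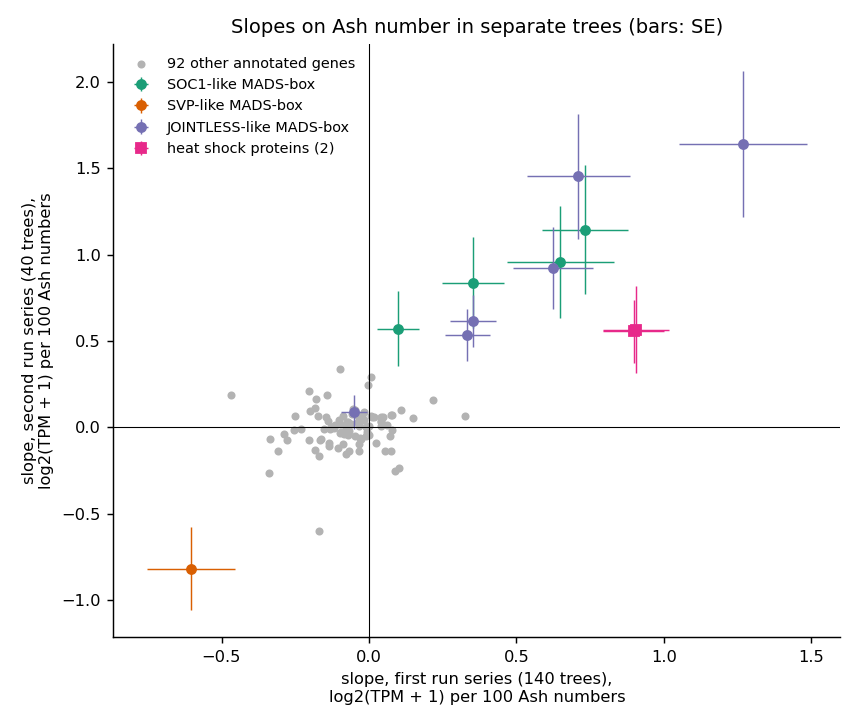
Slope of log2(TPM + 1) per 100 Ash numbers in the 40 trees of the second run series against the 140 trees of the first, for the 11 MADS-box genes and 94 other annotated genes, with SE bars on the MADS-box genes and 2 heat shock genes. Of the 11 MADS-box genes, 10 share their sign in both series, with Fe_g18379 at 1.64 in the second and 1.27 in the first, and both heat shock genes have positive slopes in both.

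Of 4 heat shock and chaperone genes, 2 were lower in low trees, where 5.27% of all genes were, and 2 did not pass. The counts were the same in the first series, where 17.3% of all genes were lower. Fe_g35175.1, which carries the domain of HSP90 chaperones, had 0.163, 0.651 and 3.52 TPM in low trees and 0.317, 2.21 and 38.3 TPM in high trees. Levels were low in most trees, and 13 high trees exceeded every low tree. The difference was -1.08 ± 0.15 (SE, limma adjusted p = 2.81e-09) and the ratio of mean TPM, low over high, was 0.191. Fe_g3105, a small heat shock protein, had 0.287, 1.10 and 6.28 TPM in low trees and 0.553, 3.38 and 52.7 TPM in high trees. Its difference was -1.17 ± 0.17 (SE, limma adjusted p = 9.96e-09), and 11 high trees exceeded every low tree.

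Unlike the MADS-box genes, these genes set the high trees apart. Middle minus high was -0.99 for Fe_g35175.1 (limma adjusted p = 4.92e-08) and -1.01 for Fe_g3105 (adjusted p = 4.45e-07), and low minus middle did not pass for either (adjusted p = 0.893 and 0.797). Medians of Fe_g35175.1 stayed between 0.560 and 1 TPM up to Ash149, reached 1.32 TPM in Ash150 to Ash178 and 2.79 TPM in Ash181 to Ash218. For Fe_g3105 the medians of the last stretches were 2.38 and 4.14 TPM. The differences were as large in the first series, -1.25 and -1.26, although in the low trees both genes were also higher in the second series than in the first, by 0.59 and 0.45 (limma adjusted p = 2.48e-06 and 0.00365).

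The 2 further genes of the list were not called. Fe_g33132, a heat shock factor of the kind that switches on such genes, had medians of 3.79 TPM in low trees and 3.48 TPM in high trees (difference 0.07, limma adjusted p = 0.294). Fe_g36128, a chloroplast co-chaperonin, had medians of 390 TPM in low trees and 466 TPM in high trees (difference -0.22, adjusted p = 0.17).

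The remaining annotated genes moved much less. Of the 94 genes outside the MADS-box family, 22 were higher and 4 lower in low trees, which is 27.7% against 21% of all genes tested, with a median difference of 0.06 against 0.04 over all genes. In the first series 30 were higher and 8 lower, and the share called, 40.4%, was then under the 50.8% of all genes. The shares of these lists were therefore not above the background in both sets of trees. After median-of-ratios scaling, 14 were higher and 9 lower, and in the first series with that scaling 15 were higher and 19 lower, so the direction of these lists as a whole depended on scaling.

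Among 5 clock and light signalling genes, 3 were higher in low trees, against 15.7% of all genes. The first series had 4 higher, against 33.5%, and after scaling 2 were, where 3247 of 31003 genes were. Fe_g30298, related to the ZEITLUPE family of blue-light receptors that turn over clock proteins, had 7.51, 13.7 and 20.5 TPM in low trees and 3.64, 11.1 and 20.2 TPM in high trees (difference 0.31 ± 0.07, SE, limma adjusted p = 0.00036). Fe_g10721, annotated as an embryonic flower gene, a family that represses flowering in Arabidopsis, had medians of 2.19 TPM in low trees and 1.55 TPM in high trees (0.24, adjusted p = 0.000776). These differences were 0.38 and 0.22 in the first series (limma adjusted p = 5.99e-05 and 0.00428). Fe_g28326, similar to the clock regulator APRR1, had a difference of 0.12 (adjusted p = 0.0335) that did not pass after scaling (0.06, adjusted p = 0.215).

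Vesicle and Golgi trafficking genes had 4 of 8 members higher over all trees, where 15.7% of all genes were. The first series gave 4 higher and 1 lower (62.5% called, against 50.8%). Scaling gave 2 higher and 1 lower, where 3247 and 2944 of 31003 genes were. Fe_g18776, an epsin that binds clathrin, had 1.97, 3.33 and 5.02 TPM in low trees and 1.25, 2.41 and 3.81 TPM in high trees (0.30 ± 0.04, SE, limma adjusted p = 4.62e-08). Its groups were among the better separated, with 54 of 56 low trees above the high median, and the difference was 0.38 in the first series (adjusted p = 2.04e-10). Fe_g3700, a subunit of the oligomeric Golgi complex, had medians of 16.9 TPM in low trees and 12.4 TPM in high trees (0.58, adjusted p = 0.0123), and a rank test did not pass (adjusted p = 0.0871). The calls of Fe_g36201 (0.22, adjusted p = 0.0221) and Fe_g21866.2 (0.09, adjusted p = 0.0269) were lost after scaling.

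RNA binding and processing had 4 of 6 members higher in low trees, against 15.7% of all genes, and 3 of 6 in the first series, against 33.5%. Fe_g36608, a heterogeneous nuclear ribonucleoprotein, had medians of 15.1 TPM in low trees and 11.3 TPM in high trees (0.28, limma adjusted p = 0.000205). In the low trees it also differed between the run series, by -0.53 (adjusted p = 1.1e-10). Fe_g39849.1 and Fe_g3737 had differences of 0.17 and 0.16 (limma adjusted p = 0.000379 and 0.000531). Fe_g35698, a polymerase, had 0.13 (adjusted p = 0.0269), which did not pass after scaling or in the first series.

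Protein kinases had 2 of 6 members higher over all trees, against 15.7% of all genes, and 4 of 6 in the first series, against 33.5%. Those over all trees were Fe_g33197.2 (AFC2, a kinase of splicing factors), with medians of 20.2 TPM in low trees and 17.7 TPM in high trees (0.20, limma adjusted p = 4.88e-06), and Fe_g10961.1 (0.23, adjusted p = 0.000211), which also passed in the first series. Auxin response and membrane transport had 3 of 4 higher over all trees, against 15.7% of all genes. In the first series 1 of 4 was higher, against 33.5%. ARF17 (Fe_g31540), an auxin response factor, had medians of 1.40 TPM in low trees and 0.939 TPM in high trees (0.25, adjusted p = 0.00117), while the transporters Fe_g28062 and Fe_g28064 (0.26 and 0.25, adjusted p = 0.0288 and 0.0236) did not pass in the first series or after scaling. In each of these kinase and auxin genes the low and high trees overlapped.

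In other lists about the same share of members was called as over all genes, with 1 of 5 AP2 and ethylene response genes, 1 of 4 plastid pigment and isoprenoid genes and 2 of 8 transporters, against 21%, and 1 of 2 prohibitins passed. Fe_g27900, with the DNA-binding domain of APETALA2, had medians of 37.7 TPM in low trees and 25.4 TPM in high trees (0.46, limma adjusted p = 0.000811). NCED2 (Fe_g40731), an enzyme that cleaves carotenoids on the path to abscisic acid, was lower in low trees, with medians of 0.690 TPM in low trees and 1.06 TPM in high trees (-0.35, adjusted p = 0.00151). A transporter of the MATE family, Fe_g40685, had medians of 68.9 TPM in low trees and 50.5 TPM in high trees (0.50, adjusted p = 0.0202). The prohibitin Fe_g3120 had medians of 10.7 TPM in low trees and 8.28 TPM in high trees (0.28, adjusted p = 0.000733). The differences of these 4 genes in the first series were 0.34, -0.43, 0.56 and 0.36, all with a limma adjusted p under the threshold.

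Lipid and sphingolipid metabolism had 1 of 7 members higher, where 15.7% of all genes were, and 1 lower, where 5.27% were. The higher one was the ceramidase Fe_g11104 (0.17, limma adjusted p = 0.000339), and the lower one the thioesterase Fe_g20015 (-0.20, adjusted p = 0.00612). Of 7 chromatin genes, only the GAGA-binding protein Fe_g23724 was called (0.16, limma adjusted p = 0.00589), against 21% of all genes, and not after scaling. No member was called among 3 OVATE repressors, 4 NF-YA and TOPLESS-related regulators, 7 cell wall enzymes, 6 ubiquitin ligases and F-box proteins, 5 glycosyltransferases and 3 proteases over all trees. Of all genes, 21% were called. The median differences of these lists ran from -0.02 to 0.04. The first series, where 50.8% of all genes passed, had calls in 5 of these lists. These were 1 OVATE repressor, 1 NF-YA or TOPLESS-related regulator, 1 ubiquitin ligase or F-box protein, 1 glycosyltransferase and 2 proteases. Scaling called 1 OVATE repressor and 1 ubiquitin ligase or F-box protein lower. Over all trees limma gave the smallest adjusted p in these lists, 0.0546, for the OVATE repressor Fe_g20799, with medians of 2.27 TPM in low trees and 3.15 TPM in high trees.

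**Figure D5:**
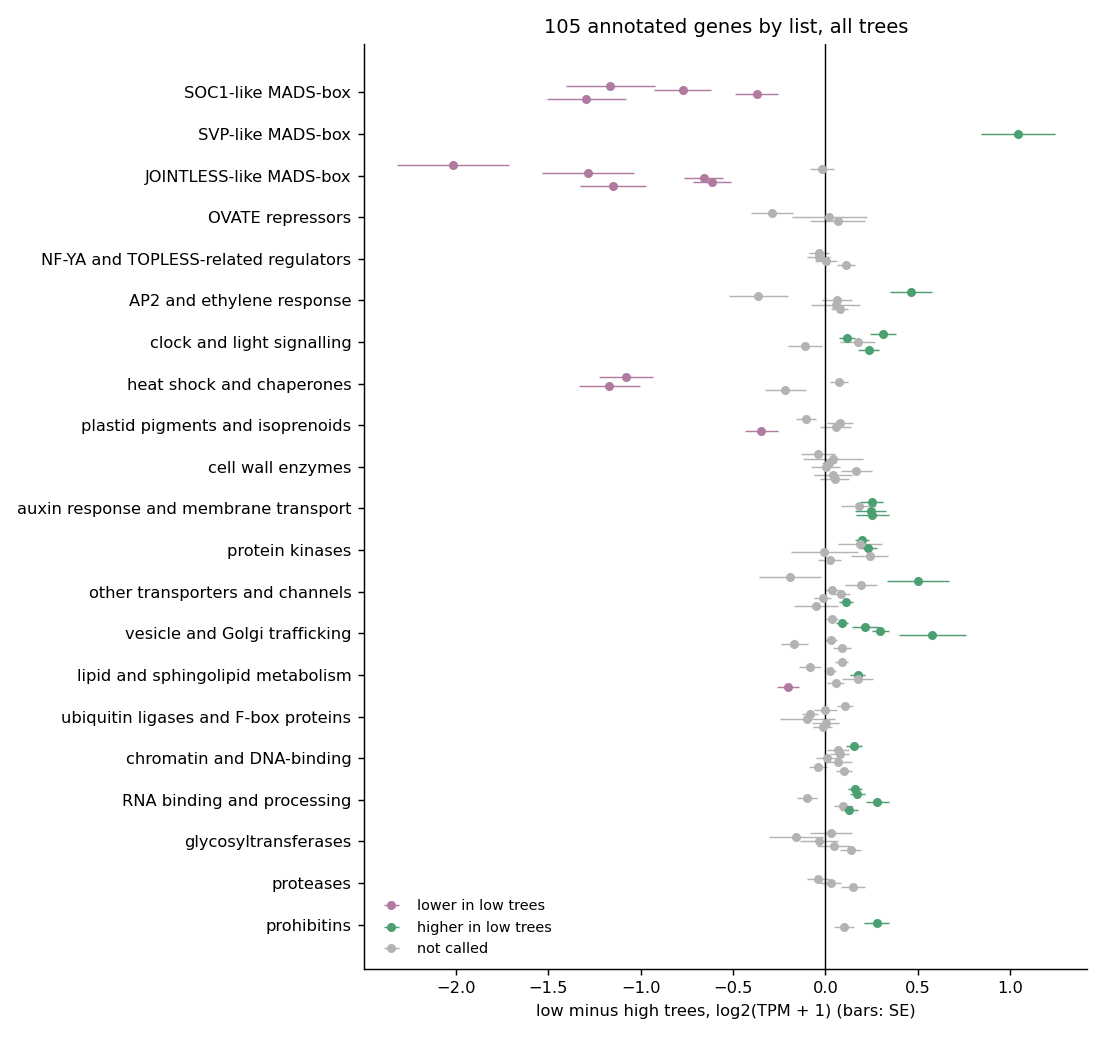
Difference of low minus high trees on the log2(TPM + 1) scale for the annotated genes, by list, with SE bars and colours for the limma call over all trees. MADS-box genes reach beyond 1 on either side, with Fe_g18379 at -2.02 and Fe_g22999 at 1.04. The heat shock genes that were called lie beyond 1 on the negative side only, and the members of other lists lie closer to 0.

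The largest differences of all were in genes without a name here, since they lie outside the set of annotated genes used. Fe_g19570 had 3.33, 7.31 and 198.4 TPM in low trees and 10.1, 83.8 and 518 TPM in high trees, a difference of -2.20 ± 0.31 (SE, limma adjusted p = 7.11e-09), and 33 low trees lay below every high tree. Fe_g4504 had 0.121, 1.68 and 16 TPM in low trees and 0.445, 11.9 and 86.9 TPM in high trees (-2.14 ± 0.19, SE, adjusted p = 9.57e-18), and all but 1 of 56 low trees lay below the high median. Both had middle medians in between, at 20.7 TPM for Fe_g19570 and 4.05 TPM for Fe_g4504.

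In the other direction, Fe_g43889 had 16.9, 77.7 and 140.6 TPM in low trees and 8.47, 28.6 and 124.4 TPM in high trees (1.34 ± 0.14, SE, limma adjusted p = 5.91e-14). Fe_g7621 had 0.379, 6.01 and 19.9 TPM in low trees and 0.366, 1.48 and 6.74 TPM in high trees (1.27 ± 0.15, SE, adjusted p = 1.12e-11), and 23 low trees exceeded every high tree. All 4 of these genes also differed between the run series in the low trees, by 2.95 (second minus first) for Fe_g19570, 0.74 for Fe_g4504, -0.86 for Fe_g43889 and -1.36 for Fe_g7621 on the log2 scale. None of the MADS-box genes passed that comparison, where 61.3% of all genes did, and it did not account for the Ash number. Within the first series the differences of low minus high were larger, at -3.25, -2.34, 1.61 and 1.74.

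Fewer genes differed in how many trees reached 1 TPM. Of 12593 genes tested by Fisher's exact test, 225 passed adjustment, 160 reached by a larger share of low trees and 65 by a smaller share. Within the first series 1047 passed, 566 and 481 in those directions. Fe_g35175.1 reached 1 TPM in 16 of 56 low trees and 37 of 51 high trees (two-sided exact test, adjusted p = 0.00232), and Fe_g3105 in 34 low trees and 47 high trees (adjusted p = 0.0213).

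Of 7 measures of whole libraries, 3 differed between low and high trees over all trees and 5 in the first series. Low and high trees had 33664 ± 516 and 33605 ± 351 genes above 0 TPM (SD), a difference that did not pass a permutation test (two-sided, adjusted p = 0.579, 7 measures). The first principal component, with 30.5% of the variance, had means of 3.91 in low trees and 0.27 in high trees (permutation, adjusted p = 0.758), but within the first series the means were 41.2 and -1.85 (adjusted p = 4.667e-05). The third component, with 3.68% of the variance, separated low trees at -8.00 ± 20 from high trees at 16.7 ± 20.8 (SD, permutation, adjusted p = 0.00014). After median-of-ratios scaling the component of that rank did not pass (low minus high -5.58, permutation, adjusted p = 0.240), but component 2 did. Components were matched by rank only, so whether the separation moved to another component was not tested. Components 4 and 5 also passed over all trees (permutation, adjusted p = 0.00707 and 0.0397). The component of rank 4 did not pass after scaling, and component 5 did not pass in the first series. Pairs of trees were nearly as alike across the groups as within them, with median Pearson correlations of 0.919 among low trees, 0.917 between low and high trees and 0.922 among high trees. Middle trees had median correlations of 0.914 with low trees and 0.915 with high trees. In the first series these were 0.941, 0.924 and 0.921, so that the low trees of that series resembled each other most.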

How the data were processed

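Reads of 182 leaf libraries, published earlier, were trimmed by the authors with Trimmomatic and quantified with Salmon 0.8 against the coding sequences of their ash genome, and tximport gave the deposited TPM values. Genes were tested on log2(TPM + 1), a scale that understates changes of low genes, in R 4.3.3 using limma 3.58.1 and its eBayes step with a trend. All 182 trees entered the fit in 3 groups, and p-values were adjusted by Benjamini-Hochberg over the 31003 genes that reached 1 TPM in 19 or more trees. Slopes are per 100 Ash numbers. Library measures were compared by two-sided permutation tests in SciPy 1.17.1 with 100000 resamples, for which 2e-05 is the smallest p. Trees were treated as independent, and relatedness was not modelled. No covariate was used. Alternatives covered the pseudocount, filter, scaling, rank tests, covariates, group borders and run series.

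The groups, genes and lists were chosen with earlier results of these data known. The 21 lists came from annotations the study gave for genes related to damage on these trees. Named genes were the 11 MADS-box genes, up to 4 called members of each list with the largest difference or the one with the smallest p, and the identifiers with the largest differences, the smallest p, the highest mean TPM or the smallest detection p. As exceptions, only 4 identifiers without annotation are described in the report, and the marker genes and the heat shock genes that were not called were added. In simulated data with known changes, low against high, 72% of genes changed by 0.5 and 96% of those changed by 1 on the log2 scale were called. For slopes in the second run series 54% at 0.5 and 92% at 1 were called. Each gene was first shuffled over all trees, which removes the run series, and only genes above a minimum mean level were changed. These shares may therefore not hold for low genes or for the spread within the second series.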

Additional observations from a re-analysis of the deposited data

Results flagged for a closer look

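A limma interaction term compared the slope on Ash number in the second run series with that in the first. It passed Benjamini-Hochberg adjustment for 3221 genes, or 10.4% of those tested, of which 2332 had the higher slope in the second series. Of the annotated genes in all lists together, 6 were among them, a smaller share than the 10.4% of all genes tested. None was a MADS-box or heat shock gene. Those sets are small, so their lack of calls cannot be told apart from the share over all genes. The difference in slope, second minus first series, in log2(TPM + 1) per 100 Ash numbers, was 0.333 for Fe_g5474 (divinyl reductase), 0.344 for Fe_g36201 (SEC1B), 0.237 for Fe_g18776 (epsin), 0.414 for Fe_g16439 (diacylglycerol kinase), 0.177 for Fe_g3737 (arginine/serine-rich protein) and 0.266 for Fe_g36608 (heterogeneous nuclear ribonucleoprotein). The first series held 140 trees and the second 40, with 3 high trees, and the part of the run series in these differences was not tested.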

How the results depend on the processing

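No paired analysis was possible because each Ash number belongs to a single tree. Of 687 differences of named genes over the alternatives, 626 kept their direction and side of the threshold, 31 lost and 29 gained the call, and 1 turned: Fe_g21866.2 was -0.0095 in the first run series with scaling. For the 11 MADS-box genes 143 values gave 4 lost calls, all of Fe_g40350. The count of 6500 genes between low and high trees was 13581 with the run series as a covariate, 15741 in the first series, 15303 there with scaling and 10062 with the first principal component as a covariate. Under the other alternatives, it lay between 6191 and 8223. The count of 6626 slopes was 11687, 14742 and 10352 with the series covariate, the first series and the component, and 2 in the second series (Fe_g4504 and Fe_g3950, the last chosen after its values were seen). The 2.96% of genes with a slope in middle trees became 4.57% after scaling, 1.5% with the series covariate, 1.6% in the first series, 0.629% with the component and 5.48% by rank. Detection gave 64 genes at 0.5 TPM, 471 at 2 TPM and 1047 in the first series. In the first series, low minus high was -1.338 for the percent of TPM in the 10 most abundant genes, 43.04 and 9.396 for components 1 and 2, which then passed, and -3.176 for component 5, which did not. After scaling it was 24.61 for component 2, which passed, and -5.58 and -6.4 for components 3 and 4, which did not. Components before and after scaling were matched by rank only, so they need not describe the same pattern. The causes were not tested. Scaling within the first series, the second series alone and the fit without 10 trees least like the rest of their series (2 low, 3 middle and 5 high, 7832 genes called) were chosen after seeing the data. Depth is unknown, and the Ash number and the run series cannot be fully told apart.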
